A study of Ixodes ricinus with 9 samples.

Results

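The midguts of female Ixodes ricinus ticks silenced for antigen p23 were set directly against those silenced for metalloprotease on feeding day 7. The comparison took in 6 of the 9 libraries of the series, 3 for each knockdown, and all 28510 genes of the count table. Of these, 6383 passed the filter on low counts and were tested. Genes of lipid handling, amino acid transport and protease inhibition were then described beside the rest, through 13 lists drawn from the domain and protein names in the table.

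Unfed adult females of a laboratory colony received double-stranded RNA (dsRNA) by injection. It targeted antigen p23 or metalloprotease, or GFP, a sequence foreign to the tick that served as the control. The ticks were then fed artificially on bovine blood through a membrane. Each group held 9 ticks in 3 pools of 3 ticks, and each pool gave 1 midgut library. All 3 groups share the injection, the dsRNA, the colony and the artificial meal. By the study's own account the metalloprotease knockdown in the midgut was partial. The targets are not paired with genes of the count table in the sources used here, so their levels are not analysed here. Reads were aligned to the genome of a related tick, I. persulcatus, and gene names below are the best protein matches or domains given in the table, not tick gene symbols.

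Antigen p23 is a tick protein, described in I. scapularis as an anticoagulant of saliva, and tick metalloproteases are secreted enzymes that act on fibrin and other host proteins. The midgut of a feeding female takes up haemoglobin and host lipids, digests them inside its cells and passes on amino acids and lipids for egg production. Ticks do not make sterols, and fatty acid synthase, lipases, lipid carriers such as vitellogenin and apolipophorin, and sterol-binding NPC proteins handle the lipids. Amino acids cross membranes through carriers of the cationic and heteromeric, sodium-coupled and proton-coupled families, and serpins, Kunitz, TIL and cystatin proteins block proteases.

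Library totals were 3303358 to 3636541 counts in the antigen p23 group, 3484152 to 9430607 in the metalloprotease group and 3306565 to 4681133 in the GFP control group. Antigen p23 libraries 1 and 2 stood apart. Their nearest neighbours lay at distances of 121 and 145 on the log2 scale over 6924 genes, against 64.8 to 72.9 for the other libraries, and only 1 of the 9 libraries was nearest to one of its own group. Antigen p23 libraries detected 6294 to 9136 genes, against 9589 to 10334 in metalloprotease libraries and 9410 to 10988 in GFP control libraries. Genes with 1 to 9 counts numbered 661 to 2927, 2581 to 3253 and 2880 to 3280 in the same order of groups. The midgut markers ferritin, cathepsin L and legumain were present in every library, while 11 of the 36 genes of the midgut digestion list, matched to cathepsin B, legumain and a vacuolar-processing enzyme, had 0 counts in all 9. In whole tissue, fewer cells of a type and less RNA per cell cannot be told apart. Labels do not say whether pools came from separate feeding units, and p-values measure the spread between these pools.

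No gene differed between the knockdowns at an adjusted p of 0.05 or less in edgeR's quasi-likelihood test. At an unadjusted p of 0.05 or less, 164 of 6383 genes differed (2.57%), where the threshold itself lets through 319 genes if nothing differs. Of these, 67 were higher in antigen p23 libraries (1.05% of the genes tested) and 97 were lower (1.52%). These counts moved with the libraries and the filter, to 126 higher and 460 lower without antigen p23 library 3, and to 145 higher and 500 lower without the filter on low counts. DESeq2, run as an alternative, called 21 of the 7630 genes it gave an adjusted p (0.275%), 5 higher (0.0655%) and 16 lower (0.21%), and 11 of the 21 had not passed the filter for edgeR. The log2 difference, antigen p23 over metalloprotease, was above 0 for 44.8% of the genes tested, with a median of -0.07.

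That difference followed expression level. Levels are given as CPM, the counts of a gene scaled to a common library size. In the tercile of genes with the lowest mean CPM, the median log2 difference was -0.30 and 35.8% of genes were above 0. The middle tercile had a median of -0.10 with 42.4% above 0, and the highest tercile a median of 0.06 with 56.3% above 0. Among genes with an unadjusted p of 0.05 or less, 5 were higher and 25 lower in the lowest tercile, against 48 higher and 33 lower in the highest. Antigen p23 libraries 1 and 2 held the fewest genes with 1 to 9 counts, at 1625 and 661, and the part of this in the difference between terciles was not tested.

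**Figure D1:**
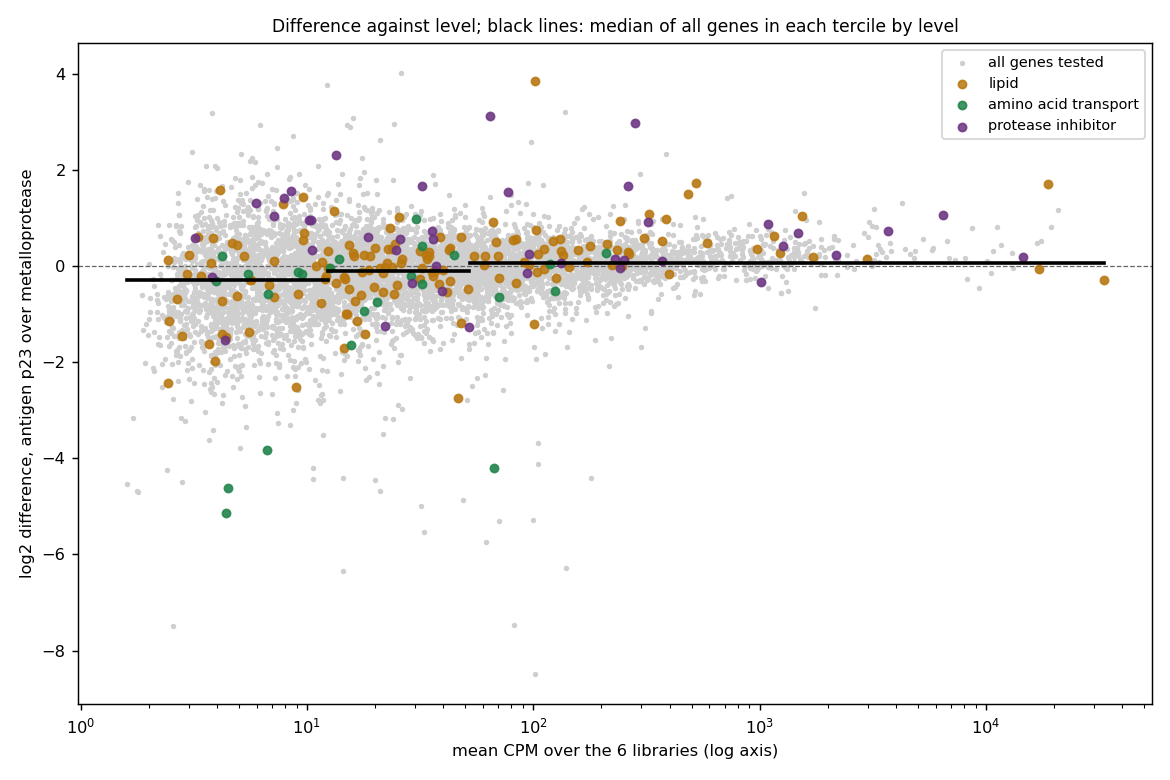
Log2 difference, antigen p23 over metalloprotease, of each tested gene against its mean CPM over the 6 libraries (log axis), with lipid, amino acid transport and protease inhibitor genes coloured and a black line at the median of all genes in each tercile by level. The line lies at -0.30 for the lowest tercile and at 0.06 for the highest tercile.

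The 3 classes were then counted by direction, beside 1.05% of all genes higher and 1.52% lower at the same unadjusted p. Of 149 lipid genes tested, 82 (55.0%) were above 0, with a median log2 difference of 0.07, and 7 were higher and 3 lower at an unadjusted p of 0.05 or less. Of 24 amino acid transport genes, 7 (29.2%) were above 0, with a median of -0.27, and 4 were lower and none higher. Of these 4, 3 passed the filter on low counts only through metalloprotease libraries and could only come out lower. Of 42 protease inhibitor genes, 32 (76.2%) were above 0, with a median of 0.56, and 5 were higher and none lower. The protease inhibitor median was -0.056 without the filter and -0.035 in DESeq2, and the lipid median was -0.14 and -0.13, in fits where the median of all genes was -0.38 and -0.31. Groups that did not overlap numbered 11 higher and 8 lower among lipid genes, 4 lower among amino acid transport genes and 7 higher among protease inhibitors, where 3.16% of all genes did not overlap on the higher side and 5.64% on the lower side. None of these members passed after adjustment over all genes in edgeR, and the lists held 433, 79 and 154 genes of the table, of which the rest were too weak to test.

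**Figure D2:**
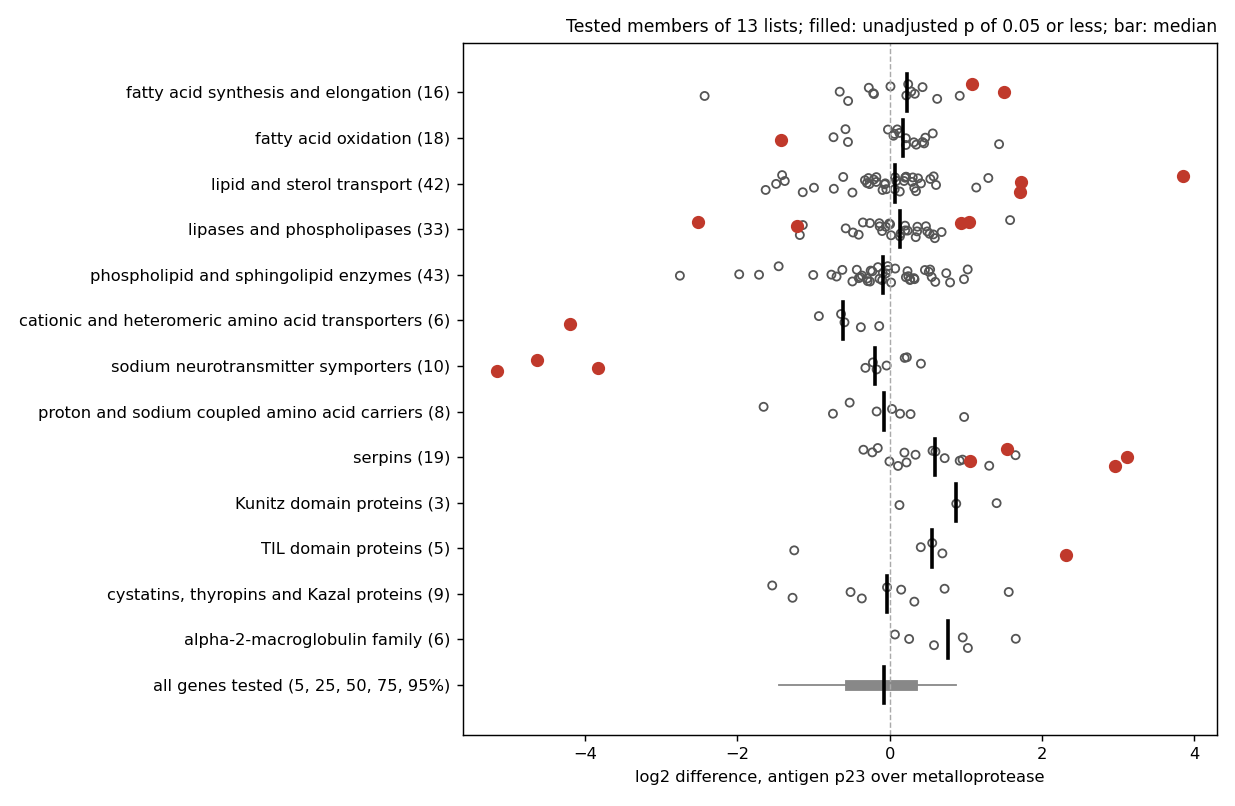
Log2 differences, antigen p23 over metalloprotease, of the tested members of 13 lists, with the number tested beside each name, a bar at the median and filled points at an unadjusted p of 0.05 or less. The bottom row gives percentiles of all 6383 genes, and the serpin median of 0.60 lies above their median of -0.07.

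The classes were also read within the terciles of level. In the lowest, middle and highest tercile, the protease inhibitor medians were 0.96, 0.45 and 0.33 over 10, 12 and 20 genes. Lipid medians were -0.22, -0.07 and 0.31 over 39, 58 and 52 genes, in the order of all genes. Amino acid transport medians were -0.32, -0.13 and -0.52 over 9, 10 and 5 genes, where those of all genes were -0.30, -0.10 and 0.06. In the lowest and middle tercile the class median thus lay close to that of all genes. In the lowest tercile, though, only 1 of its 9 genes (11.1%) lay above 0, against 35.8% of all genes. There 3 of the 9 were lower at the unadjusted p used above, against 25 of 2128 genes (1.17%). These 3 passed the filter on low counts only through metalloprotease libraries and could only come out lower. In the middle tercile 4 of its 10 genes lay above 0, and in the highest tercile 2 of its 5 genes.

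Fatty acid synthesis was led by fatty acid synthase, the enzyme that builds palmitate from acetyl units. HPB47_018997, which carries its reductase and thioesterase domains, had 767, 595 and 752 CPM in antigen p23 libraries 1, 2 and 3, against 266.9, 232.3 and 271.8 CPM in metalloprotease libraries and 94.5, 524 and 442 CPM in GFP control libraries. Every antigen p23 library lay above every metalloprotease and GFP control library. The means were 705 ± 95.2 and 257 ± 21.5 CPM (SD, n = 3 each), a 2.83-fold higher level (log2 difference 1.50, SE 0.26) with an adjusted p of 0.445 in edgeR and 0.00338 in DESeq2, and with adjusted values between 0.00338 and 1.00 over the alternatives. Leaving out any 1 library kept its log2 difference between 1.41 and 1.61.

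Another model with acyl transferase and dehydratase domains, HPB47_018998, had 261, 449 and 603 CPM in antigen p23 libraries, against 262, 173 and 203 in metalloprotease libraries and 108, 462 and 370 in GFP control libraries. Here antigen p23 library 1 lay at the level of metalloprotease library 1, so the groups overlapped, and the log2 difference was 1.08 (SE 0.35). HPB47_018999, the model with the ketoacyl synthase domain, had 32.2, 79.0 and 148 CPM against 42.3, 60.0 and 37.4 CPM, with a log2 difference of 0.92 (SE 0.52). These 3 models lie side by side on the minus strand of a single I. persulcatus scaffold, at 152021-175035, 177998-198276 and 203311-239945, and hold the parts of the enzyme in turn. They may be pieces of 1 gene and are then not separate measurements.

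In GFP control libraries all 3 fatty acid synthase models were lowest in library 1 and highest in library 2. Against GFP control, HPB47_018997 had a log2 difference of 1.01 (SE 0.54) in antigen p23 libraries and of -0.47 (SE 0.56) in metalloprotease libraries. Both comparisons use the same GFP control libraries.

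The list of fatty acid synthesis and elongation had 16 tested members, 10 above 0, with a median log2 difference of 0.23. Only the 2 synthase models named reached an unadjusted p of 0.05. The most abundant member, the elongase match HPB47_028502, an enzyme that lengthens fatty acyl chains, had 805, 1341 and 2024 CPM in antigen p23 libraries, against 1034, 1050 and 688 in metalloprotease libraries (log2 difference 0.62, SE 0.36), and the groups overlapped. Acetyl-CoA carboxylase 1 (HPB47_011995), which makes the malonyl units for the synthase, differed by 0.33 on the log2 scale.

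Among 18 fatty acid oxidation genes, 13 lay above 0 and the median was 0.17. HPB47_007367 matched carnitine palmitoyltransferase 1, which passes long-chain fatty acids into mitochondria. It had 4.03, 15.4 and 9.44 CPM in antigen p23 libraries, against 17.8, 32.0 and 30.0 in metalloprotease libraries and 21.7, 8.81 and 26.9 in GFP control libraries. Antigen p23 and metalloprotease groups did not overlap, while GFP control spanned both (log2 difference -1.42, SE 0.61). Another match to the same enzyme, HPB47_026554, had the opposite sign at a higher level, with 301, 236 and 186 CPM against 174, 170 and 205 CPM and a log2 difference of 0.45 (SE 0.30). The most abundant member, HPB47_011077, a sterol carrier protein 2 match with thiolase domains, had 1291, 945 and 977 CPM against 1017, 763 and 834 CPM (log2 difference 0.35, SE 0.27).

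**Figure D3:**
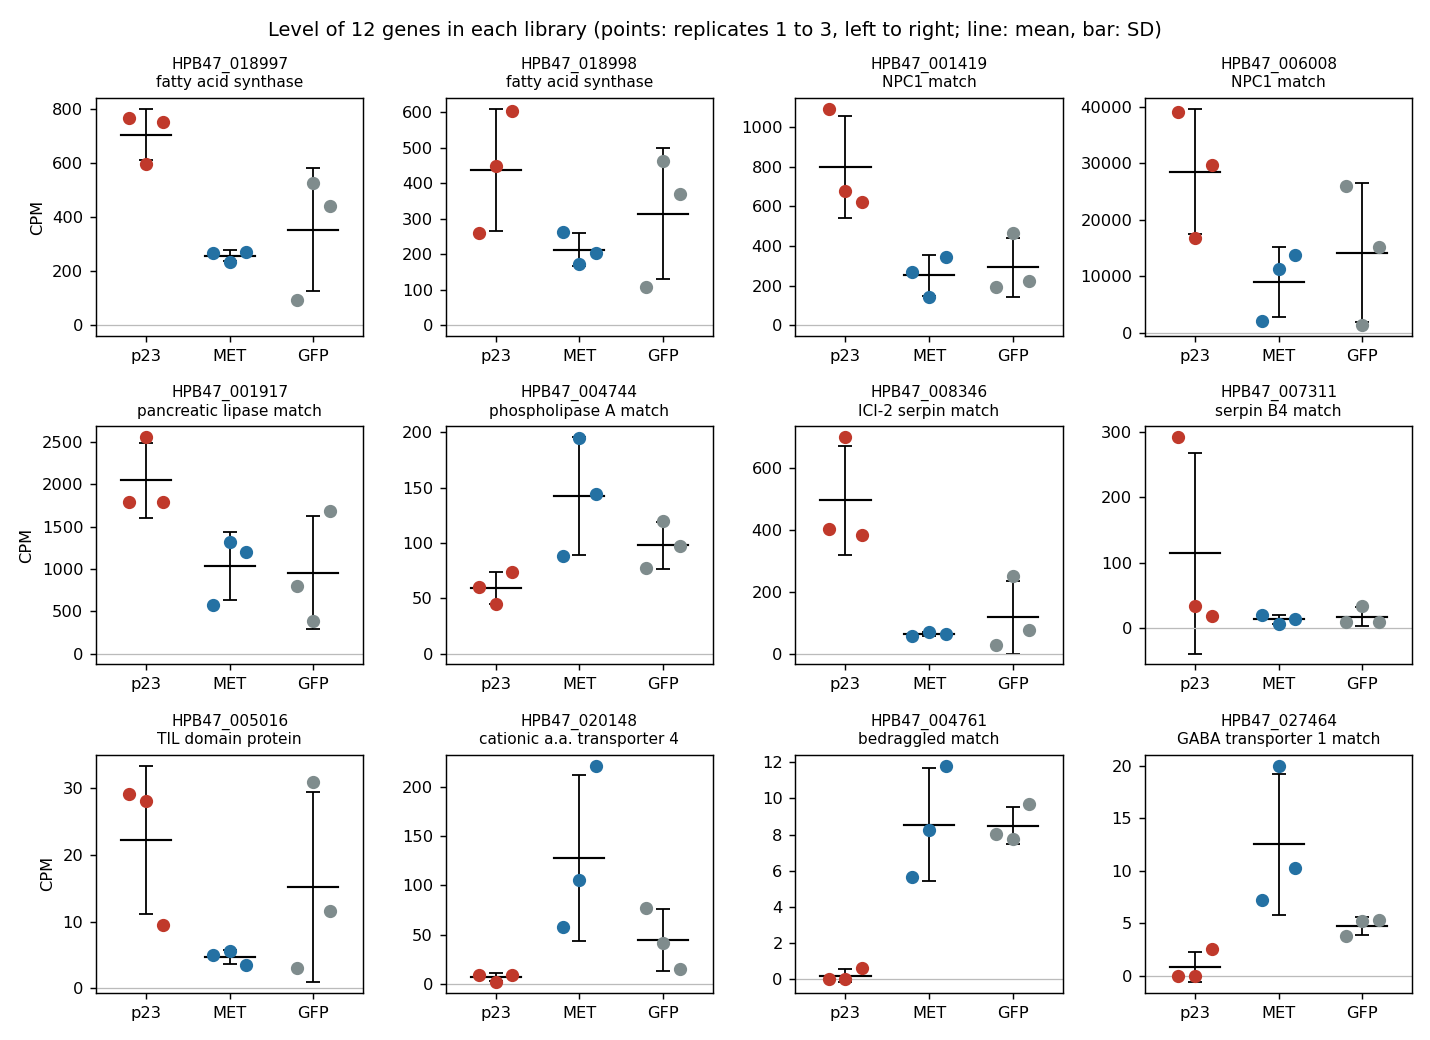
CPM of 12 genes in each library of the antigen p23 (p23), metalloprotease (MET) and GFP control (GFP) groups, with replicates 1 to 3 from left to right, a line at the mean and a bar for the SD, each panel on its own linear scale. HPB47_018997 and HPB47_008346 show 3 antigen p23 libraries above all 3 metalloprotease libraries, and HPB47_020148 shows the reverse.

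Sterol-binding proteins came next among lipid genes. NPC1 is the lysosomal membrane protein that hands on cholesterol from digested lipoproteins, and its N-terminal domain holds the sterol. HPB47_001419 is a short model of 684 bases with this domain alone. It had 1093, 678 and 625 CPM in antigen p23 libraries, against 269, 142 and 343 in metalloprotease libraries and 191, 463 and 221 in GFP control libraries. The antigen p23 group lay above both others without overlap, at means of 799 ± 257 and 251 ± 102 CPM (SD, n = 3 each), 3.31-fold higher than in metalloprotease libraries (log2 difference 1.72, SE 0.40, adjusted p 0.998 in edgeR and 0.0638 in DESeq2, between 0.00681 and 1.00 over the alternatives).

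Another short model of the same length and domain, HPB47_006008, is one of the most abundant transcripts of the table. It had 38962, 16859 and 29696 CPM in antigen p23 libraries, against 2046, 11375 and 13752 in metalloprotease libraries and 25917, 1383 and 15200 in GFP control libraries. All antigen p23 values were above all metalloprotease values, and GFP control spread 18.7-fold across both (log2 difference 1.71, SE 0.63). Metalloprotease library 1 and GFP control library 2 were its low libraries, and without metalloprotease library 1 the log2 difference was 1.22.

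Longer models and a partner gene had smaller differences, and a test between genes was not made. HPB47_016215 and HPB47_011648, which match NPC1 and carry further domains, differed by 0.07 and 0.32 on the log2 scale. The NPC2 match HPB47_001248, a soluble sterol carrier of the lysosome, averaged 3082 CPM in antigen p23 libraries and 2904 CPM in metalloprotease libraries, a log2 difference of 0.13.

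Carriers of lipid through the haemolymph overlapped between the knockdowns. The most abundant of them, the vitellogenin match HPB47_012779, the yolk protein precursor, had 20210, 31141 and 36458 CPM in antigen p23 libraries, against 16789, 64446 and 29549 in metalloprotease libraries and 47072, 16323 and 60600 in GFP control libraries. Its groups overlapped widely (log2 difference -0.30, SE 0.48), and it changed sign to 0.38 without metalloprotease library 2. The apolipophorin match HPB47_020504, a lipoprotein backbone, differed by -0.06 (SE 0.44).

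The largest lipid difference rested on a single pool. HPB47_024734, with a CRAL/TRIO lipid-binding domain, had 530, 30.8 and 6.92 CPM in antigen p23 libraries, against 13.1, 13.8 and 14.7 in metalloprotease libraries and 5.43, 18.7 and 3.76 in GFP control libraries. The log2 difference of 3.85 (SE 1.32) became 0.48 without antigen p23 library 1 and -0.98 with antigen p23 library 3 alone. Over the 42 tested lipid and sterol transport genes, 22 lay above 0 and the median was 0.07.

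Lipases split by direction. Pancreatic-type lipases cut triglycerides, and HPB47_001917, the most abundant lipase, had 1797, 2557 and 1790 CPM in antigen p23 libraries, against 574, 1322 and 1199 in metalloprotease libraries and 801, 387 and 1688 in GFP control libraries. Antigen p23 values lay above both other groups (log2 difference 1.04, SE 0.36). The lysosomal phospholipase A2 match HPB47_010081 had 338, 398 and 204 CPM against 147, 148 and 215 CPM in metalloprotease libraries, overlapping by 1 library (log2 difference 0.93, SE 0.35).

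On the lower side, HPB47_004744, matched to a phospholipase A and acyltransferase that moves acyl chains between phospholipids, had 59.8, 44.4 and 73.6 CPM in antigen p23 libraries, against 88.3, 195 and 144 in metalloprotease libraries and 77.2, 120 and 97.0 in GFP control libraries. No antigen p23 value reached a value of either other group (log2 difference -1.22, SE 0.39). HPB47_009100, a weakly expressed pancreatic lipase-related match, had 2.69, 4.36 and 0.629 CPM against 16.4, 3.53 and 25.9 CPM, where metalloprotease library 2 lay within the antigen p23 range (log2 difference -2.51, SE 0.99).

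Of 33 tested lipases and phospholipases 19 lay above 0, with a median of 0.14. None of 43 enzymes of phospholipid and sphingolipid metabolism reached an unadjusted p of 0.05, 18 lay above 0 and the median was -0.09. Their most abundant member, the ceramide synthase match HPB47_000293, which joins a fatty acid to a sphingoid base, differed by 0.27 (SE 0.33), and by -0.0041 without metalloprotease library 1.

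Among the 3 classes, amino acid transport held the largest differences on the lower side. HPB47_020148 matched cationic amino acid transporter 4, of the family that carries arginine and lysine across membranes. It had 9.07, 1.74 and 9.44 CPM in antigen p23 libraries, against 57.4, 105 and 221 in metalloprotease libraries and 77.0, 41.5 and 14.7 in GFP control libraries. Antigen p23 libraries lay below every library of both other groups, with means of 6.75 ± 4.34 and 128 ± 84.4 CPM (SD, n = 3 each), 18.4-fold lower than in metalloprotease libraries.

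This log2 difference of -4.20 (SE 0.73) came with the third smallest p of all genes. Its adjusted p was 0.445 in edgeR and 3.88e-06 in DESeq2, and lay between 3.88e-06 and 1.00 over the alternatives. It lay between -4.57 and -3.57 when any 1 library was left out, and was -3.75 with antigen p23 library 3 alone. Against GFP control it was -2.69 (SE 0.78) in antigen p23 libraries and 1.51 (SE 0.68) in metalloprotease libraries, 2 comparisons that share the GFP control libraries.

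The other 5 tested genes of the cationic and heteromeric family lay between -0.93 and -0.14, so that all 6 were below 0 with a median of -0.61. HPB47_009408, HPB47_009409 and HPB47_009410 among them are neighbours on the minus strand of 1 scaffold, between 831581 and 1017472. They may share reads or belong to a single gene, so the 6 may not be separate measurements. HPB47_001239, the most abundant, matched the light chain that takes up cystine and basic amino acids. It had 25.5, 56.6 and 81.8 CPM against 70.3, 131 and 60.3 CPM, and the groups overlapped (log2 difference -0.64, SE 0.49).

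Sodium-driven symporters of the neurotransmitter family, which take up glycine, proline, GABA or neutral amino acids, gave 3 further genes on the lower side. Each had 0 counts in antigen p23 libraries 1 and 2. HPB47_004761, matched to the fruit fly transporter bedraggled, had 0, 0 and 2 counts in antigen p23 libraries, against 25, 28 and 108 in metalloprotease libraries and 34, 45 and 31 in GFP control libraries. Summed over libraries, the level was 45.5-fold lower in antigen p23 than in metalloprotease libraries, with a 95% counting interval of 12.4 to 379.

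HPB47_027465, a proline transporter match, had 0, 0 and 3 counts in antigen p23 libraries, against 21, 52 and 53 in metalloprotease libraries and 10, 18 and 7 in GFP control libraries, a ratio of 23.7 (95% counting interval 7.94 to 117). HPB47_027464, a GABA transporter 1 match, had 0, 0 and 8 counts in antigen p23 libraries, against 32, 68 and 94 in metalloprotease libraries and 16, 30 and 17 in GFP control libraries (log2 difference -3.83, SE 1.41). HPB47_027464 and HPB47_027465 are neighbours on the minus strand of 1 scaffold, at 408748-431968 for HPB47_027464 and 463859-464350 for HPB47_027465. They may share reads or belong to a single gene.

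In all 3 symporters no antigen p23 library reached a metalloprotease or GFP control library. All 3 passed the filter on low counts only through the metalloprotease libraries, so the filter fixed their direction as lower. The zeros fall in antigen p23 libraries 1 and 2, the 2 libraries that detected the fewest genes, and the part of that in the result was not tested. With antigen p23 library 3 alone against the metalloprotease group, the log2 differences were -3.71 for HPB47_004761, -3.13 for HPB47_027465 and -2.28 for HPB47_027464. Without metalloprotease library 2, HPB47_027465 had a log2 difference of -3.93 and no longer reached an unadjusted p of 0.05. When only genes with at least 10 counts in every library were tested, none of the 4 amino acid transport genes remained in the test.

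The remaining 7 symporters of this family lay between -0.32 and 0.41, and the most abundant, another GABA transporter 1 match (HPB47_008278), differed by 0.23 (SE 0.66). Of the 8 proton- and sodium-coupled carriers, 4 lay above 0, the median was -0.07 and none reached an unadjusted p of 0.05. HPB47_006093, a sodium-coupled neutral amino acid transporter match, had 44.7, 44.1 and 31.1 CPM against 19.6, 8.23 and 35.0 CPM (log2 difference 0.98, SE 0.56). HPB47_008853, of the same family, had 139, 93.2 and 66.1 CPM against 163, 124 and 160 CPM (log2 difference -0.52, SE 0.37), so the 2 differed in sign and in both the groups overlapped.

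HPB47_027115, a match to the glutamate carrier excitatory amino acid transporter 2, differed by -1.65 (SE 1.23), and the most abundant carrier, HPB47_010641, whose model joins a transporter domain to signalling domains, by 0.27 (SE 0.32). The summed level of the 18 proton- and sodium-coupled carriers was 522 to 538 CPM in antigen p23 libraries and 528 to 663 CPM in metalloprotease libraries. That of the 22 cationic and heteromeric genes was 69.2 to 162 CPM in antigen p23 libraries and 175 to 373 CPM in metalloprotease libraries, without overlap. Without HPB47_020148 the other 21 genes summed to 60.1 to 153 CPM in antigen p23 libraries and 118 to 238 CPM in metalloprotease libraries, with overlap.

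Protease inhibitors were led by a serpin with the smallest p of all genes tested. Serpins trap serine proteases by a conformational change, and HPB47_008346 matched intracellular coagulation inhibitor 2, a horseshoe crab serpin that blocks clotting proteases. It had 404, 698 and 384 CPM in antigen p23 libraries, against 58.6, 73.2 and 65.3 in metalloprotease libraries and 29.5, 252 and 77.3 in GFP control libraries. The antigen p23 group lay above every other library, and the metalloprotease libraries lay close together.

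Its means were 495 ± 176 and 65.7 ± 7.33 CPM (SD, n = 3 each), 7.79-fold higher in antigen p23 libraries (log2 difference 2.96, SE 0.35). The adjusted p was 0.0750 in edgeR and 1.98e-09 in DESeq2, and it was 0.0224 when only genes with at least 10 counts in every library were tested, with values between 1.98e-09 and 1.00 over all alternatives. Leaving out 1 library kept the log2 difference between 2.63 and 3.12. Against GFP control the log2 difference was 2.06 (SE 0.68) in antigen p23 libraries and -0.88 (SE 0.69) in metalloprotease libraries.

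Of 19 serpins tested, 15 lay above 0 with a median log2 difference of 0.60. At an unadjusted p of 0.05 or less 4 were higher, where 1.05% of all genes were. All 4 were among the 11 serpins of the highest tercile of level, where 2.26% of all genes were higher. HPB47_007311, a serpin B4 match, had 292, 34.0 and 18.9 CPM in antigen p23 libraries, against 20.5, 6.17 and 15.0 in metalloprotease libraries and 9.45, 34.2 and 9.70 in GFP control libraries. Its high value was antigen p23 library 1, without which the log2 difference of 3.12 (SE 1.00) became 0.96. HPB47_027205, whose model joins a serpin domain to an ion channel domain, had 53.4, 81.0 and 208 CPM against 36.0, 45.6 and 38.3 CPM, without overlap (log2 difference 1.54, SE 0.50). Antigen p23 library 3 was its high library, and without it the log2 difference was 0.80 and no longer reached an unadjusted p of 0.05.

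The abundant leukocyte elastase inhibitor match HPB47_027208, a cytosolic type of serpin, had 13254, 5274 and 7276 CPM in antigen p23 libraries, against 6611, 3310 and 3031 in metalloprotease libraries and 3060, 2636 and 5662 in GFP control libraries. It overlapped by 1 library, and the log2 difference was 1.05 (SE 0.44). HPB47_027205 and HPB47_027208 are 2 of 8 tested serpins on a single scaffold. The log2 differences of these 8 lay between -0.23 and 1.65, and reads of such close copies may be shared.

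The most abundant serpin did not share this pattern. HPB47_012019, also matched to intracellular coagulation inhibitor 2, had 7783, 18324 and 20110 CPM in antigen p23 libraries, against 28922, 7349 and 5197 in metalloprotease libraries and 10922, 11747 and 12225 in GFP control libraries. Metalloprotease library 1 was the highest of all 9, the groups overlapped, and the log2 difference of 0.19 (SE 0.63) took either sign between -0.23 and 1.33 when 1 library was left out. The summed serpin level was 31996 to 35888 CPM in antigen p23 libraries, against 10956 to 46845 CPM in metalloprotease libraries and 16267 to 23424 CPM in GFP control libraries.

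Kunitz, TIL and macroglobulin proteins lay mostly above 0. TIL domain proteins are small cysteine-rich inhibitors of trypsin-like proteases, and HPB47_005016 had 29.2, 28.2 and 9.44 CPM in antigen p23 libraries, against 4.95, 5.59 and 3.50 in metalloprotease libraries and 3.07, 30.9 and 11.6 in GFP control libraries. All antigen p23 values were above all metalloprotease values, and GFP control spanned both (log2 difference 2.31, SE 0.66). Its more abundant neighbour HPB47_005017 had 1685, 1905 and 1804 CPM against 839, 1832 and 773 CPM, where metalloprotease library 2 lay within the antigen p23 range (log2 difference 0.69, SE 0.36).

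The 3 tested Kunitz proteins all lay above 0. The most abundant matched Boophilin-H2, a tick thrombin inhibitor. This gene, HPB47_018472, had 1178, 2059 and 944 CPM in antigen p23 libraries, against 859, 369 and 1136 in metalloprotease libraries and 1365, 347 and 1447 in GFP control libraries, with overlap (log2 difference 0.87, SE 0.45). Alpha-2-macroglobulins enclose proteases of many kinds, and all 6 tested lay above 0 with a median of 0.77. The most abundant, HPB47_027039, had 1044, 78.1 and 49.1 CPM against 199, 80.6 and 114 CPM, and its log2 difference of 1.66 (SE 1.02) turned to -1.01 without antigen p23 library 1.

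Cystatins, which block cathepsins, thyropins and Kazal proteins were on both sides, with 4 of 9 tested genes above 0 and a median of -0.03. The thyropin-type gene HPB47_026598 had 10.4, 18.6 and 8.81 CPM against 4.05, 5.59 and 3.61 CPM, without overlap (log2 difference 1.56, SE 0.71), and did not reach an unadjusted p of 0.05. HPB47_025926, an insulin-like growth factor-binding protein match with a Kazal domain and the most abundant of the list, differed by -0.03 (SE 0.45).

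Markers of midgut digestion also lay mostly above 0. Of 17 tested, 13 lay above 0 with a median of 0.32, where 44.8% of all genes lay above 0. At an unadjusted p of 0.05 or less 2 were higher, where 1.05% of all genes were. They were the aspartic protease match HPB47_005210 (log2 difference 1.04, SE 0.33) and the papain-type match HPB47_019066 (log2 difference 2.45, SE 0.91). The summed level of the 36 genes was 7516 to 9834 CPM in antigen p23 libraries, against 5303 to 8559 in metalloprotease libraries and 4800 to 7310 in GFP control libraries. By terciles of level the digestion medians were -0.04, 0.28 and 0.36 over 5, 2 and 10 genes, where those of all genes were -0.30, -0.10 and 0.06. In the highest tercile 9 of the 10 lay above 0, where 56.3% of all genes did.

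No gene of the muscle, salivary gland, germline, nerve and cuticle lists reached an unadjusted p of 0.05, over 8, 5, 3, 7 and 13 genes tested, where 2.57% of all genes did. Their median log2 differences were 0.09, -0.51, 0.31, -0.07 and -0.17. Summed muscle levels were 2346 to 3120 CPM in antigen p23 libraries and 1197 to 3236 in metalloprotease libraries, and salivary levels were 98.2 to 348 and 50.2 to 350 CPM. Of 25 salivary genes 16 had 0 counts in all libraries. The part of tissue make-up in the inhibitor and lipid values was not tested.

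The GFP control libraries varied among themselves. Among the 19 class members with an unadjusted p of 0.05 or less, 12 higher and 7 lower, GFP control library 2 was the highest control library in 11, and it lay within or above the antigen p23 range in 5 of the 12 higher genes. Examples were HPB47_005016, at 30.9 CPM in that library, and HPB47_018998, at 462 CPM. HPB47_004761 had a log2 difference from GFP control of -5.13 (SE 1.38) in antigen p23 libraries and 0.01 (SE 0.41) in metalloprotease libraries. HPB47_009100 had -0.01 (SE 1.17) in antigen p23 libraries and 2.53 (SE 0.76) in metalloprotease libraries.

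**Figure D4:**
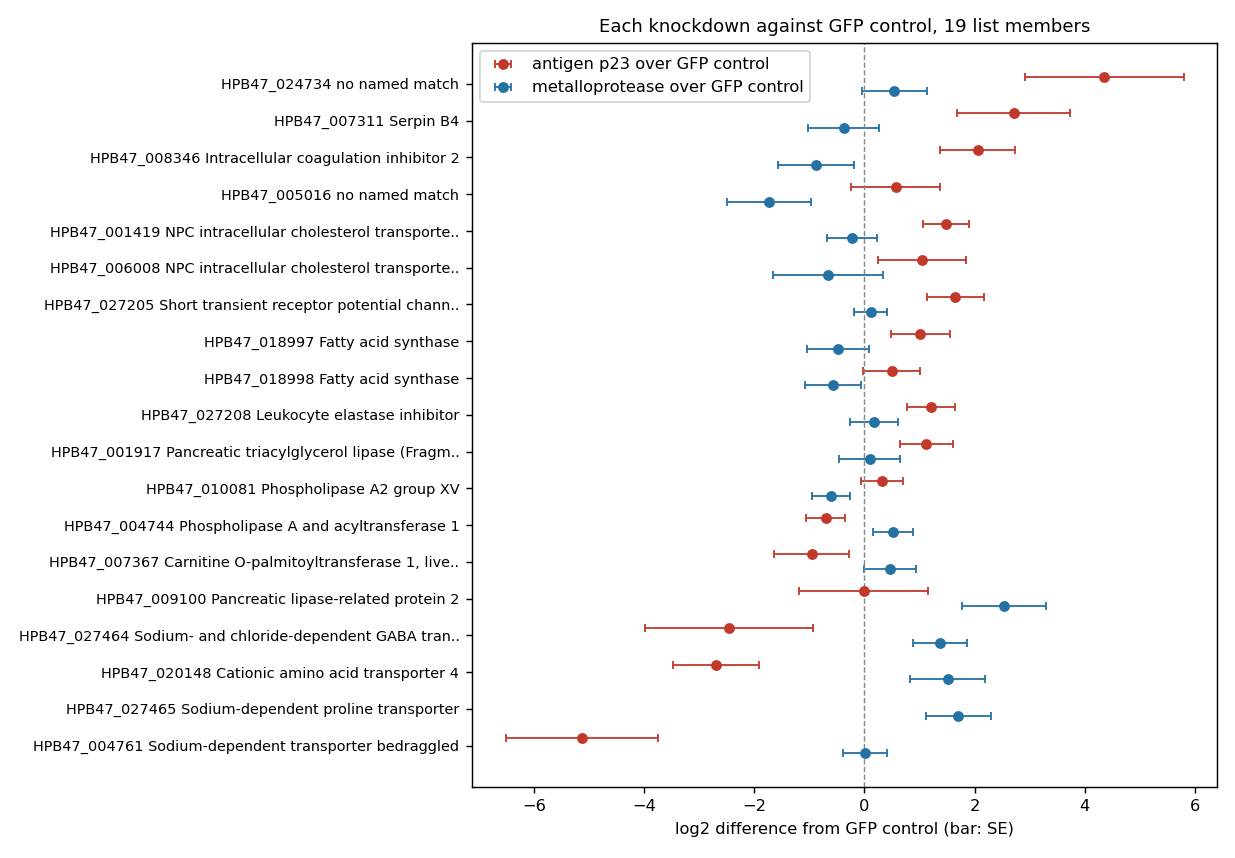
Log2 difference from GFP control, with its SE, of antigen p23 (red) and metalloprotease (blue) for the 19 class members with an unadjusted p of 0.05 or less between the knockdowns, ordered by that difference. Both series share the 3 GFP control libraries, and HPB47_027465 has no antigen p23 point because it did not pass the filter there.

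Outside the 3 classes, the genes with the smallest p held enzymes and genes without a named protein match. HPB47_008141, a sulfotransferase match, had 2.35, 0 and 0.315 CPM in antigen p23 libraries, against 18.0, 204 and 266 in metalloprotease libraries and 9.45, 14.9 and 131 in GFP control libraries (log2 difference -7.47, SE 1.29, adjusted p 0.445 in edgeR and 2.27e-09 in DESeq2). HPB47_024631, an aldehyde dehydrogenase match, had 0, 0 and 3 counts in antigen p23 libraries, against 77, 172 and 160 in metalloprotease libraries, a ratio of 77.1 with a 95% counting interval of 26.2 to 375. Both were without overlap. Both passed the filter on low counts only through metalloprotease libraries, so the filter fixed their direction as lower.

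The 4 genes of this set without a named protein match were split by sign. The paper lists 1 of them, HPB47_000445, under chitin binding. HPB47_012173 had 29.9, 27.6 and 11.3 CPM in antigen p23 libraries, against 1.35, 1.47 and 2.30 in metalloprotease libraries (log2 difference 3.76, SE 0.71), and HPB47_000841 had 43.3, 39.2 and 24.9 against 5.40, 5.29 and 7.44 CPM (log2 difference 2.61, SE 0.51). The filter on low counts fixed the direction of HPB47_012173 as higher, since it passed only through antigen p23 libraries. HPB47_006091 and HPB47_000445 had log2 differences of -5.74 (SE 1.19) and -6.27 (SE 1.44), 53.5-fold and 77.4-fold lower. Metalloprotease libraries had 22.7 to 255 and 17.2 to 702 CPM. Neither gene would have passed the filter through antigen p23 libraries alone, so the filter favoured a lower value. When 1 library was left out, HPB47_006091 lay between -6.99 (without antigen p23 library 1) and -4.60 (without metalloprotease library 3), and HPB47_000445 between -7.22 (without antigen p23 library 1) and -4.10 (without metalloprotease library 2).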

How the data were processed

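Poly-A midgut RNA was sequenced in 9 libraries. After read cleaning, the authors used Bowtie2 2.5.3 for alignment to the I. persulcatus genome (assembly BIME_Iper_1.3) and featureCounts for summing by gene. The table they deposited gives raw counts for 28510 genes, unnormalized, with 1 column a library. Neither strand setting nor treatment of multi-mapping reads is stated in the sources used here. Similar or overlapping genes may share reads. No gene ID matched the reference gene table (0 of 28510).

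The 6 libraries were compared in R 4.3.3 with edgeR 4.0.16 (filterByExpr, TMM, robust quasi-likelihood F test, group as the only term) and Benjamini-Hochberg adjustment over all genes tested, with a threshold of 0.05. The study's methods use DESeq2. Here DESeq2 1.42.0 was the alternative. CPM were scaled by TMM over all 9 libraries. The SE of a log2 difference came from the F statistic. Counting intervals are exact binomial at 95% for groups with 1 to 3 counts, and for a group without any count a floor of 3 counts over the group was used. They cover counting error only.

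Classes and lists were built from Pfam domains and protein names, and they and the members were chosen with earlier results of these data known. The genes named are the 10 with the smallest p, the 8 with the smallest p in each class, and the most abundant member of each class list. Marker lists are given as sums. Other class members, genes called by DESeq2, sulfotransferases, the terciles by level and the fit without antigen p23 libraries 1 and 2 were chosen after their values were seen.

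On simulated counts of this contrast over 6383 genes, 33.9% of the genes with a 4-fold change passed adjustment. Of those with a 16-fold change, 83.6% passed. In the data no gene passed in edgeR. HPB47_020148 and HPB47_008141, 18.4-fold and 178-fold lower in antigen p23 libraries, both had an adjusted p of 0.445 there. Whether the simulated counts vary as much as the antigen p23 libraries was not tested, so the shares may be too high for these data. As alternatives, each library was left out in turn, the filter was dropped or made stricter, DESeq2's size factors or DESeq2 itself were used, the replicate number was added as a block, robust dispersions were turned off, and the fit was run on all 9 libraries.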

Additional observations from a re-analysis of the deposited data

How the results depend on the processing

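Without the filter on low counts, 16 genes passed adjustment (3 higher, 13 lower). At an unadjusted p of 0.05 or less, 145 of 12114 genes were higher and 500 lower. Lower members were 13 of 266 lipid, 8 of 46 amino acid transport and 2 of 89 protease inhibitor genes. Higher members numbered 5, 0 and 6 in the same order. The lipid and protease inhibitor medians were -0.14 and -0.056, where the median of all genes was -0.38. With at least 10 counts in every library 1 gene passed (HPB47_008346), 0 amino acid transport genes were lower and the protease inhibitor median was 0.33. With all 9 libraries in 1 fit, 191 genes were lower. DESeq2 called 21 genes. Of 11992 genes it had 113 higher and 303 lower at an unadjusted p of 0.05 or less, with 7 lipid genes higher and 5 lower. Its medians were -0.13 (lipid), -0.035 (protease inhibitor) and -0.31 (all genes). Higher genes made up 40.9% of those with an unadjusted p of 0.05 or less, against 22.5% without the filter, 27.2% in DESeq2 and 30.8% with all 9 libraries, and 21.5% without antigen p23 library 3. In these fits, relative to the median of all genes, the inhibitors stayed above it.

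Same-numbered libraries of the 2 knockdowns deviated with correlations of 0.06, 0.08 and -0.13, so the numbers do not pair them. With the replicate block 1 gene passed (HPB47_021062, a sulfotransferase match), and the lipid median was -0.0044. Metalloprotease library 3 deviated most like antigen p23 library 1, not its own number.

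When each library was left out in turn, no gene passed adjustment. At an unadjusted p of 0.05 or less, 56 to 126 genes were higher and 84 to 460 lower. The most on both sides came without antigen p23 library 3, with 460 of 6788 genes lower, 8 of them lipid genes. Without antigen p23 library 1 and without metalloprotease library 2, 163 and 154 were lower. The lipid median ranged from -0.025 (without metalloprotease library 1) to 0.16 with 5 to 8 genes higher and 2 to 8 lower, the amino acid transport median from -0.42 to -0.22 with 0 to 1 higher and 2 to 5 lower, the 2 without metalloprotease library 2, and the protease inhibitor median from 0.28 (without metalloprotease library 3) to 0.63, with 4 to 7 higher and 0 to 1 lower. With antigen p23 library 3 alone, chosen after seeing the data, 1 lipid gene was lower and the protease inhibitor median was 0.014. In that fit the spread comes from the metalloprotease libraries alone, and the lone library is assumed to vary like them. Of the 19 class members with an unadjusted p of 0.05 or less, 12 to 16 were still below it when 1 library was left out.

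Of 42 genes followed over 14 alternatives, 546 values kept direction and side of the adjusted threshold, 17 passed it and 13 changed sign. The other 12 had no value, 11 with at least 10 counts in every library and 1 in DESeq2. HPB47_024734 was -0.98 and HPB47_027039 was -1.39 with antigen p23 library 3 alone. When 1 library was left out, HPB47_027039 lay between -1.01 (without antigen p23 library 1) and 2.18, and HPB47_012019 between -0.23 (without metalloprotease library 3) and 1.33, being negative also without antigen p23 library 3 (-0.027) and metalloprotease library 2 (-0.10). HPB47_008278 lay between -0.36 (without antigen p23 library 2) and 0.97, and was -0.13 without metalloprotease library 1. HPB47_025926 lay between -0.47 and 0.26 (without antigen p23 library 2), and was 0.19 and 0.055 without metalloprotease libraries 2 and 3. HPB47_000293 lay between -0.0041 (without metalloprotease library 1) and 0.56, and HPB47_012779 between -0.65 and 0.38 (without metalloprotease library 2). The causes were not tested.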

Other observations

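Sulfotransferases, enzymes that add a sulfate group to small molecules or sugars, were looked at after their values were seen. Of 36 tested genes with the sulfotransferase domain, 13 lay above 0 and the median log2 difference, antigen p23 over metalloprotease, was -0.33. At an unadjusted p of 0.05 or less 5 were lower and 1, HPB47_023766 (0.86, SE 0.35), was higher, where 1.52% and 1.05% of all genes did so. The lower ones were HPB47_008141, HPB47_021062, HPB47_008142, HPB47_008140 and HPB47_004463. Of these, HPB47_008141 and HPB47_021062 passed the filter on low counts only through metalloprotease libraries and could only come out lower. HPB47_008142 would not have passed it through antigen p23 libraries alone. HPB47_008140, HPB47_008141 and HPB47_008142 lie in a row on the plus strand of 1 scaffold, between 771705 and 801527, and may share reads.

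Their levels differed widely between the metalloprotease pools. HPB47_008142 had 10.1, 0 and 0 CPM in antigen p23 libraries, against 47.7, 355 and 9.52 in metalloprotease libraries and 2.13, 19.5 and 164 in GFP control libraries. HPB47_021062 had 0, 0 and 1.57 CPM, against 2.93, 5.29 and 601 in metalloprotease libraries and 18.9, 0.864 and 12.8 in GFP control libraries. Its value rests on metalloprotease library 3, and it passed the filter on low counts only through metalloprotease libraries. The summed family level was 3152 to 6725 CPM in antigen p23 libraries and 4060 to 7459 CPM in metalloprotease libraries, with overlap.

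DESeq2 called 10 genes lower and 1 higher that did not pass edgeR's filter. Of these, 5 had 0 counts in all antigen p23 libraries. HPB47_026786, a match to a yeast sterol-binding secreted protein, had 4, 64 and 180 counts in metalloprotease libraries and 1, 8 and 0 in GFP control libraries, at least 46.7-fold lower in antigen p23 libraries against a floor of 3 counts over the group. HPB47_009375, a homeobox match, had 1, 16 and 347 counts in metalloprotease libraries and was at least 68.6-fold lower in antigen p23 libraries on the same floor. In both genes most counts came from metalloprotease library 3, which had the largest total, at 9430607 counts. The value of HPB47_009375 thus rests mainly on that pool.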
